A study of Mus musculus with 8 samples.

Results

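The collagen genes were taken as every entry of the deposited table whose symbol has the form Col, a number, a, a number, which gave 44 of 23467 genes. They were placed in 4 classes, with 11 fibrillar genes, 6 genes of basement membranes, 9 genes of fibril-associated collagens (FACIT) and 18 others. RNA was sequenced from mouse hepatoblasts of E14.5 livers (strain B6;129 mixed), from hepatocytes made of them with 12.5 ng per ml of oncostatin M for 5 days (iHP), and from biliary epithelial cells made of them on Matrigel for 14 days (iBEC). Undifferentiated hepatoblasts (iHB) were kept on collagen-coated plates. Each of these 3 stages had 1 control library, of wild type cells. The libraries labelled L1L2_Alb (Lats1-/-;Lats2f/fl;Alb-cre) numbered 1 in iHBs, 2 in iHPs and 2 in iBECs, which made 8 libraries in all. In that genotype *Lats1* is missing from every cell, while *Lats2* is removed by a Cre recombinase under the albumin promoter, so that cells of the fetal liver that do not use albumin keep *Lats2*. Nothing in the labels tells if replicate libraries were separate cultures or embryos, so p-values measure the spread between these libraries, which may be technical. Only L1L2_Alb iHPs and iBECs had replicates, so in the fit over the 3 stages that spread includes differences of the genotype effect between stages.

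Collagens are secreted proteins whose alpha chains wind into a long helix. Fibrillar collagens (types I, II, III, V, XI, XXIV and XXVII) build the fibres of stroma, and in the liver they are known mainly as products of stellate cells and portal fibroblasts. Type IV collagen forms the mesh of basement membranes, the sheets on which epithelia such as bile ducts rest. FACIT collagens sit on the surface of fibrils, and the other classes form beaded filaments (type VI), anchoring fibrils (type VII), hexagonal nets (types VIII and X), membrane-bound collagens and the multiplexins (types XV and XVIII). LATS1 and LATS2 are the kinases that keep the co-activators YAP and TAZ, partners of the TEAD transcription factors, out of action.

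Of the 5 collagen genes that passed the test between the genotypes, *Col5a1*, *Col8a1* and *Col7a1* are taken here, and *Col4a2* and *Col28a1* are not. *Col3a1* is added, 1 of 5 collagen genes whose promoters hold the letters that TEAD factors are known to bind. Before the members' levels, the promoters of these 4 genes are shown as examples. They are the 250 bases before the RefSeq start site in GRCm38.p6, written 5′ to 3′ on the strand of the gene, at chr1:45311288-45311537 (plus strand) for *Col3a1*, chr2:27886175-27886424 (plus) for *Col5a1*, chr16:57754738-57754987 (minus) for *Col8a1* and chr9:108953336-108953585 (plus) for *Col7a1*. Capitals mark matches, on either strand, to GGAATG (bound by TEAD factors), to the CCAAT box, to TATAAA (the TATA box) or to GGGCGG (the GC box).
Col3a1: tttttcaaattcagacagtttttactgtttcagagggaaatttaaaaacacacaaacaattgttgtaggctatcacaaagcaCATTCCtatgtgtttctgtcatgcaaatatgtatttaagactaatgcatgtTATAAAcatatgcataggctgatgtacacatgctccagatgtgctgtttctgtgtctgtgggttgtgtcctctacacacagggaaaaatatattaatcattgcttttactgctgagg
Col5a1: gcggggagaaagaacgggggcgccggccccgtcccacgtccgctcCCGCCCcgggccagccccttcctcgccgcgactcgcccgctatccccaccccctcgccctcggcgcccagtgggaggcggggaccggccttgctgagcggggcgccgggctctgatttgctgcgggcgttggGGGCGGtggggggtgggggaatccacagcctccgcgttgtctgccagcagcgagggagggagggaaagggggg
Col8a1: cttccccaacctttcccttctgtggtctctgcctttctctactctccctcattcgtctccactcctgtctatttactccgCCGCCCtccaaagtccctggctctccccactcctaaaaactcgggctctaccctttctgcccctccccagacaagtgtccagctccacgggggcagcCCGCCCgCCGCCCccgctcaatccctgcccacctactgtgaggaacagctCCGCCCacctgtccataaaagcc
Col7a1: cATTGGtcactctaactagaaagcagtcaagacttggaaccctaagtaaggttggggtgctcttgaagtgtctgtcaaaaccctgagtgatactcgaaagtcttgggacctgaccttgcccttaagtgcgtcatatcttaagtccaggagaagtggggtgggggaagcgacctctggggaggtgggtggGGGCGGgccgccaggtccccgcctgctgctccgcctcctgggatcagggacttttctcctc

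The *Col3a1* window held a TEAD match whose first base lay at -168 from the start site and a TATA match at -117, and no GC box. *Col5a1* held GC boxes at -205 and -73, *Col7a1* a CCAAT match at -249 and a GC box at -61, and *Col8a1* GC boxes at -170, -73, -66 and -23. Windows from 250 bases before to 50 after the start site were held for 35 of the 44 genes, 38 windows in all, since some genes have more than 1 start site. The TEAD letters stood in 5 of these 38 windows (13.2%, those of *Col3a1*, *Col4a6*, *Col6a2*, *Col18a1* and *Col20a1*), against 14.7% of all 32851 promoter windows of that length. For CCAAT the shares were 34.2% of collagen windows and 37.4% of all windows, for TATAAA 13.2% and 13.6%, and for the GC box 60.5% (23 windows) and 35.7%. A match says only that the letters are there.

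Several collagen genes are neighbours in the genome. *Col4a1* and *Col4a2*, which encode the chains of the common type IV collagen, are read in opposite directions from start sites 21 bases apart, so that their first 22 bases overlap and each has its promoter inside the other gene. The kit marks no strand, so reads on that overlap cannot be given to either gene. *Col4a5* and *Col4a6* are arranged in the same manner on the X chromosome, with start sites 1343 bases apart and no overlap. *Col3a1* and *Col5a2*, *Col6a1* and *Col6a2*, *Col4a3* and *Col4a4*, and *Col9a1* and *Col19a1* are also next to each other among protein-coding genes.

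Levels were read as RPKM, reads corrected for the length of each gene and for the depth of the library, so that genes can be set beside each other. The libraries held 18436865 to 33229075 reads on genes, as recovered from the values. *Lats1* RNA was at 5.38 to 11.2 RPKM in the controls and 7.12 to 22.7 RPKM in the libraries labelled L1L2_Alb, and *Lats2* RNA at 6.90 to 10.1 against 10.9 to 27.6 RPKM. Neither was lower, values per gene do not separate a deleted part from the rest, and the genotype is given here as labelled. Among 11 hepatocyte markers 8 passed the test lower in the libraries labelled L1L2_Alb, beside 3.37% of all genes tested, and among biliary markers the keratins *Krt7* and *Krt19* passed it higher (beside 6.2% of all genes) and *Spp1* lower. Blood cell markers summed to 604 to 2637 RPKM, so the cultures were not pure. *Lyz2* was the greater part of that sum, with *Csf1r* at 52.4 to 189 RPKM. Endothelial markers summed to 7.52 to 25.4 RPKM, with *Lyve1* at up to 22.1 RPKM and *Cdh5* at or under 0.538 RPKM. One library stood apart within its stage: summed over 16 mesenchymal markers (cells that make stroma), L1L2_Alb iBEC replicate 1 was at 1363 RPKM, against 403 RPKM in replicate 2 and 440.0 RPKM in the control iBEC library, although the control iHB library had a like sum of 1326 RPKM.

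Of the 44 collagen genes, 26 reached 1 RPKM on average over the 8 libraries and were tested (9 fibrillar, 4 of basement membranes, 5 FACIT and 8 others), and 18 did not. *Col1a1*, the main chain of type I collagen, led with a mean of 837 RPKM, followed by *Col4a1* with 599.5, *Col1a2* with 563, *Col3a1* with 549 and *Col4a2* with 462 RPKM. *Col5a2* (151 RPKM) and *Col5a1* (128 RPKM), chains of the collagen that starts fibrils, came next, and these 7 genes held 88.1% of all collagen RPKM. Just inside the limit of 1 RPKM were *Col9a3* (1.06), *Col28a1* (1.45) and *Col5a3* (2.38), and just outside it *Col9a2* (0.443), *Col23a1* (0.421) and *Col24a1* (0.414). Among the 18 genes under the limit, no library went above 1.96 RPKM, the value of *Col24a1* in L1L2_Alb iBEC replicate 1. *Col9a1* and *Col19a1* were at or under 3 reads in every library, and *Col19a1* had no read at all. *Col2a1*, the cartilage collagen, reached at most 0.419 RPKM, and *Col4a3* and *Col4a4*, chains of the kidney form of type IV collagen, at most 0.498 RPKM. The other genes under the limit were *Col6a4*, *Col6a5*, *Col6a6*, *Col8a2*, *Col10a1*, *Col13a1*, *Col17a1*, *Col22a1*, *Col25a1* and *Col26a1*.

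The first question was how collagen RNA differed between the genotypes. Over the 3 stages, type IV collagen *Col4a2* and anchoring-fibril collagen *Col7a1* rose in the libraries labelled L1L2_Alb, and *Col5a1*, *Col8a1* and *Col28a1* fell. These are 5 of the 26 genes tested (19 of 26 at an unadjusted p under 0.05, against 3524 of all 13421 genes tested), beside 9.57% of all genes tested, of which 6.2% were called higher and 3.37% lower. In direction, 19 of the 26 were lower and 7 higher, and the median log2 fold change was -0.92, against 0.06 over all genes tested. In all 5 libraries labelled L1L2_Alb, 4 of the 26 were higher than their control and 6 lower, against 3076 and 1359 of all 13421 genes. Libraries of a stage share 1 control, so these comparisons are not independent. Fibrillar genes had a median of -1.02 (8 of 9 lower, 1 called), FACIT genes -0.87 (3 of 5 lower, 0 called, 3 with an unadjusted p under 0.05), others -1.07 (7 of 8 lower, 3 called) and basement-membrane genes 0.62 (3 of 4 higher, 1 called). The fit used limma on log2(RPKM + 1) with stage as a block, and fold changes on this scale understate those of low genes. With upper-quartile scaling 51.5% of all called genes were higher, in place of 64.8% without scaling. For the collagen genes the count of calls depended on single libraries: it was 0 without control iHB, L1L2_Alb iHB 1 or control iHP, 1 without L1L2_Alb iHP 1 or L1L2_Alb iBEC 2, 3 without L1L2_Alb iHP 2, 11 without L1L2_Alb iBEC 1 and 13 without control iBEC. Over all genes the count ranged from 205 to 1702 in these settings. With stage as a block, a stage left without a control or without an L1L2_Alb library adds nothing to the genotype effect. Leaving out a control library thus took its whole stage out of that effect. Leaving out control iHB or L1L2_Alb iHB 1 gave the same estimates. In bulk samples, fewer cells of a type and less RNA per cell cannot be told apart.

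**Figure D1:**
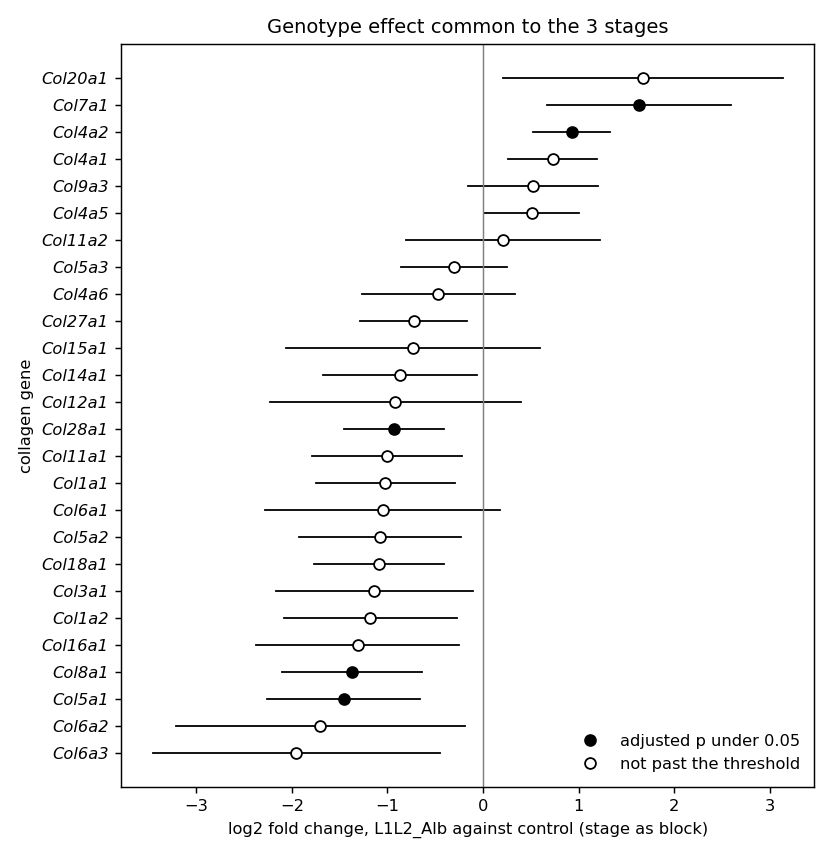
Log2 fold change between the genotypes, fitted over the 3 stages on log2(RPKM + 1), for the 26 collagen genes tested; points are estimates, lines 95% intervals and filled points the genes past the threshold. The called genes lie at 1.63 (*Col7a1*) and 0.93 (*Col4a2*) on the higher side and at -0.93 (*Col28a1*), -1.37 (*Col8a1*) and -1.46 (*Col5a1*) on the lower side.

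Among type IV genes *Col4a2* passed the test, *Col4a1* and *Col4a5* had higher estimates that did not, and *Col4a6* had a lower one. *Col4a2* was at 433 RPKM in the iHB control and 879 RPKM in L1L2_Alb iHB, at 288 RPKM in the iHP control against 581 and 577 RPKM, and at 209.7 RPKM in the iBEC control against 321 and 404 RPKM. In each stage every library labelled L1L2_Alb was above its control, and the iHP replicates were nearly equal, although the ranges overlapped once the stages were put together. *Col4a2* rose by 0.93 on the log2 scale (standard error 0.176, higher in 5 of 5 libraries, adjusted p = 0.0175). The call was lost without control iHB (adjusted p = 0.106), L1L2_Alb iHB 1 (0.106) or control iHP (0.177). *Col4a1*, whose product is wound together with that of *Col4a2*, was at 579 RPKM in the iHB control and 962 RPKM in L1L2_Alb iHB, at 387 RPKM against 640.1 and 891 RPKM in iHPs, and at 351 RPKM against 468 and 518 RPKM in iBECs. It was above the control of its stage in 5 of 5 libraries, and the threshold was narrowly missed (log2 fold change 0.73, standard error 0.203, adjusted p = 0.0604). With quantile normalization *Col4a1* was called higher. *Col4a1* and the further collagen genes given below with values in every library, other than *Col5a1*, *Col7a1*, *Col8a1* and *Col28a1*, were chosen after their values were seen.

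The ratio of *Col4a1* to *Col4a2* stayed between 1.09 and 1.68 in the 8 libraries. *Col4a5*, an X-linked chain of a second type IV collagen, was at 38.8 RPKM in the iHB control against 47.1, at 26.4 RPKM in the iHP control against 31.4 and 53.9, and at 25.0 RPKM in the iBEC control against 43.0 and 32.7 RPKM. All 5 libraries labelled L1L2_Alb were higher than their control, and the test was not passed (log2 fold change 0.51, 95% interval 0.01 to 1.01, adjusted p = 0.184). Its neighbour *Col4a6* did not follow: it was at 5.15 against 1.70 RPKM in iHBs, at 3.63 against 1.24 and 2.03 RPKM in iHPs, and at 2.32 against 5.03 and 2.35 RPKM in iBECs. *Col4a6* thus lay under the control in iHBs and iHPs and above it in iBECs, if by little in replicate 2, with a log2 fold change of -0.47 (95% interval -1.27 to 0.33) and an adjusted p of 0.452.

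**Figure D2:**
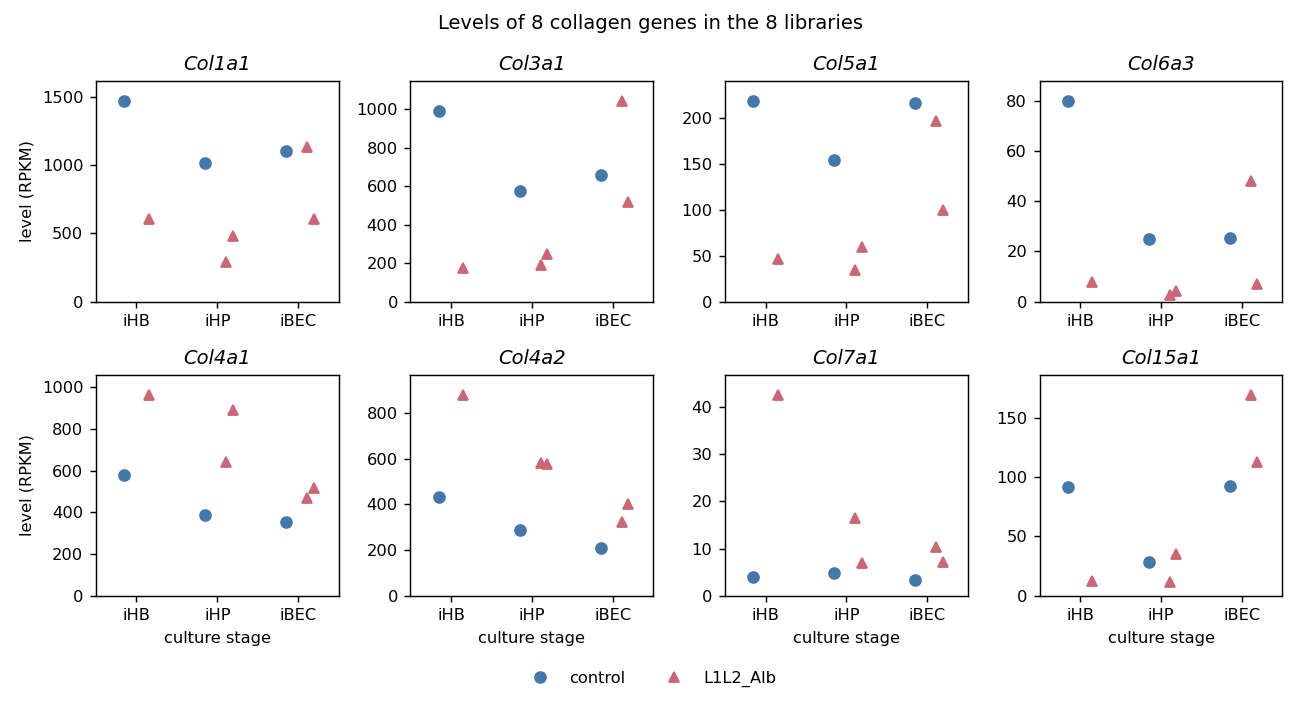
Level in RPKM (vertical axes, from 0) of 8 collagen genes by culture stage (horizontal axes); each circle is a control library and each triangle a library labelled L1L2_Alb. *Col4a2* and *Col7a1* lay above the control in all 5 such libraries and *Col5a1* below it, while *Col3a1*, *Col6a3* and *Col15a1* lay below it in iHBs and above it in L1L2_Alb iBEC replicate 1.

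Among fibrillar genes *Col5a1* passed the test. It was at 218 RPKM in the iHB control against 46.7 RPKM in L1L2_Alb iHB, at 153 RPKM in the iHP control against 34.5 and 59.2 RPKM, and at 216 RPKM in the iBEC control against 196 and 99.9 RPKM. The difference was wide in iHBs and iHPs and narrow for iBEC replicate 1, whose value of 196 RPKM exceeded that of the control iHP library. *Col5a1* fell by 1.46 on the log2 scale (standard error 0.351, adjusted p = 0.0378, lower in 5 of 5 libraries). The call was lost without control iHP (adjusted p = 0.239), L1L2_Alb iHB 1 (0.18), control iHB (0.178), L1L2_Alb iBEC 2 (0.082), L1L2_Alb iHP 1 (0.0722) or L1L2_Alb iHP 2 (0.0547). *Col5a2*, which encodes the partner chain, was at 321 against 107 RPKM in iHBs, at 205 against 54.5 and 82.4 RPKM in iHPs, and at 149 against 201 and 86.1 RPKM in iBECs. Its log2 fold change was -1.08 (adjusted p = 0.108), with 4 of 5 libraries lower.

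The type I and type III genes were alike in pattern. *Col1a1* was at 1467 RPKM in the iHB control against 606 RPKM, at 1017 RPKM in the iHP control against 288 and 483 RPKM, and at 1099.9 RPKM in the iBEC control against 1130.1 and 606 RPKM. *Col1a2*, the other chain of type I collagen, was at 1263 against 404 RPKM, at 722 against 161 and 279 RPKM, and at 593 against 756 and 328 RPKM. *Col3a1*, the single chain of type III collagen, was at 991 against 173 RPKM, at 574 against 192 and 247 RPKM, and at 659 against 1042 and 519 RPKM. In each of these genes the iHB and iHP libraries labelled L1L2_Alb lay under every control library, and L1L2_Alb iBEC 1 lay above the control of its stage. The log2 fold changes were -1.02 for *Col1a1* (adjusted p = 0.0818), -1.18 for *Col1a2* (0.0998) and -1.14 for *Col3a1* (0.154), with 4 of 5 libraries lower. None passed the threshold with the 8 libraries in the fit without scaling, and with quantile normalization *Col1a1* was called lower. Without L1L2_Alb iBEC 1, 10 of 26 collagen genes were called lower, against 439 of all 13378 genes tested. They were *Col1a1*, *Col1a2*, *Col5a1*, *Col5a2*, *Col11a1*, *Col12a1*, *Col16a1*, *Col6a3*, *Col8a1* and *Col18a1*. *Col3a1* was not among these 10. It was among the 12 of 25 called lower without control iBEC, where 1026 of all 13436 genes tested were called lower.

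The remaining fibrillar genes were lower in level. *Col11a1*, a type XI chain found within fibrils, was at 142 against 63.7 RPKM in iHBs, at 77.8 against 16.8 and 29.9 RPKM in iHPs, and at 40.5 against 47.8 and 27.4 RPKM in iBECs (log2 fold change -1.01, adjusted p = 0.107). *Col27a1*, a fibrillar collagen known from cartilage, lay under the control of its stage in 5 of 5 libraries, from 17.1 against 11.9 RPKM in iHBs to 7.00 against 5.64 and 5.64 RPKM in iBECs, short of the threshold (-0.72, adjusted p = 0.102). *Col5a3* ranged from 0.918 to 3.40 RPKM (-0.30, adjusted p = 0.479). *Col11a2* was the fibrillar gene with a higher estimate (0.21, adjusted p = 0.817), and without L1L2_Alb iHP 1 its direction turned (-0.05).

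**Figure D3:**
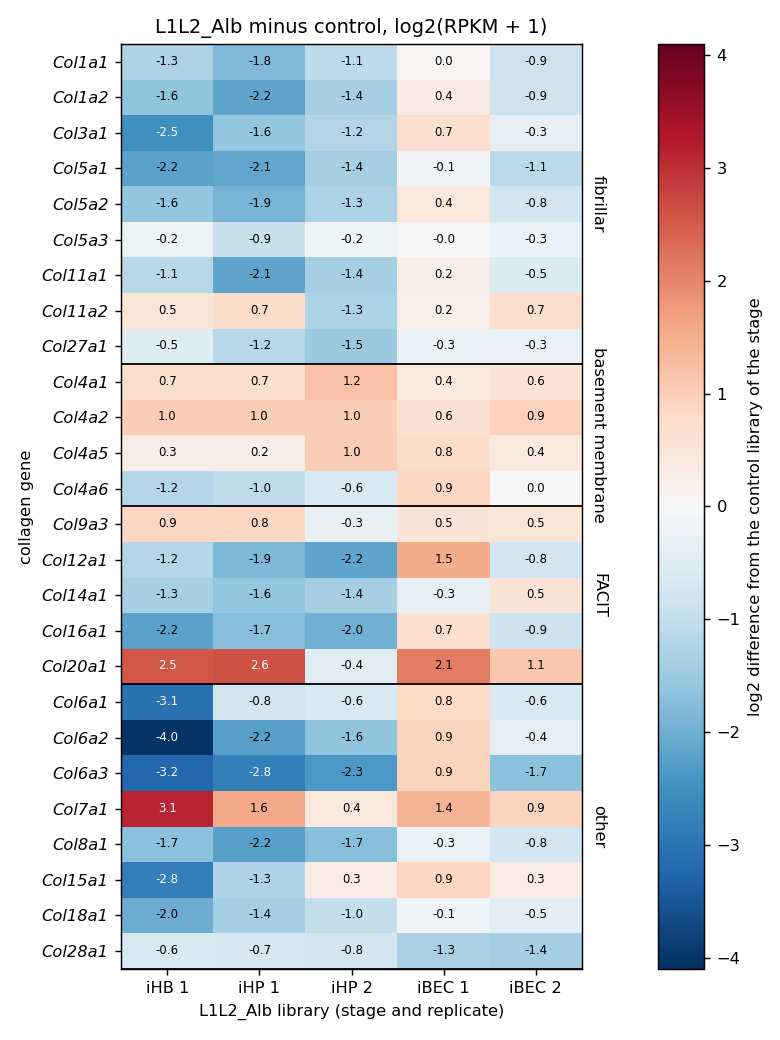
Difference of each library labelled L1L2_Alb (columns) from the control library of its stage, in log2(RPKM + 1), for the 26 collagen genes tested (rows, in 4 classes); red is higher, blue is lower and the numbers are the differences to 1 decimal. The iHB and iHP columns were mostly blue outside type IV collagen, from -4.01 (*Col6a2*) upwards. The column of iBEC replicate 1 had 19 of 26 genes higher, a share near that of all genes tested (9466 of 13421). The column of iBEC replicate 2 had 10 of 26 higher, against 10244 of 13421.

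The beaded filaments of type VI collagen, which link cells to the stroma around them, differed widely between libraries. *Col6a3* was at 80.0 RPKM in the iHB control against 7.79 RPKM, at 25.0 RPKM in the iHP control against 2.74 and 4.11 RPKM, and at 25.3 RPKM in the iBEC control against 48.3 and 7.13 RPKM. *Col6a2* was at 97.0 against 5.09 RPKM, at 42.3 against 8.31 and 12.9 RPKM, and at 31.3 against 59.3 and 23.4 RPKM. *Col6a1* was at 143 against 16.3 RPKM, at 78.8 against 45.8 and 50.3 RPKM, and at 76.7 against 137 and 49.9 RPKM. The type VI genes were thus lower than the control in iHBs, iHPs and iBEC replicate 2, and higher in iBEC replicate 1. Log2 fold changes were -1.95 (*Col6a3*, adjusted p = 0.102), -1.70 (*Col6a2*, 0.145) and -1.05 (*Col6a1*, 0.263). The ratio of *Col6a1* to *Col6a2* was 1.47 in the iHB control and 3.20 in L1L2_Alb iHB, and 1.86 in the iHP control against 5.52 and 3.89, whereas the iBEC control had 2.45 against 2.31 and 2.13.

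*Col7a1*, whose product anchors epithelia to the stroma beneath the basement membrane, was at 4.05 RPKM in the iHB control and 42.6 RPKM in L1L2_Alb iHB, at 4.90 RPKM in the iHP control against 16.5 and 7.04 RPKM, and at 3.32 RPKM in the iBEC control against 10.3 and 7.07 RPKM. Its lowest value in the libraries labelled L1L2_Alb, 7.04 RPKM, was above its highest control value, 4.90 RPKM, and the 2 iHP replicates differed widely. It rose by 1.63 on the log2 scale (standard error 0.419, higher in 5 of 5 libraries, adjusted p = 0.0475), and the estimate ranged from 1.08 without control iHB or L1L2_Alb iHB 1 (adjusted p = 0.168 and 0.174) to 1.99 without control iHP (0.103). The call was also lost without control iBEC (0.0507), L1L2_Alb iBEC 2 (0.0684), L1L2_Alb iBEC 1 (0.0721) or L1L2_Alb iHP 1 (0.095), and with upper-quartile scaling or quantile normalization *Col7a1* was not called.

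*Col8a1*, a chain of the hexagonal nets of vessels and cornea, was at 16.04 RPKM in the iHB control against 4.30 RPKM, at 4.48 RPKM in the iHP control against 0.180 and 0.643 RPKM, and at 1.10 RPKM in the iBEC control against 0.726 and 0.230 RPKM. It lay under the control of its stage in all 5 libraries, and its level was lower in iHPs and iBECs than in iHBs of the same genotype. *Col8a1* fell by 1.37 on the log2 scale (standard error 0.318, adjusted p = 0.0345), with 17 reads behind the lowest value (L1L2_Alb iHP 1) and 28 behind the next (L1L2_Alb iBEC 2). *Col28a1*, a collagen known from nerve, had 66 reads in the iHB control (0.548 RPKM) and no read in L1L2_Alb iHB, which put it at least 22.2-fold lower there, counting the library without reads at a floor of 3 reads. The iHP control held 0.929 RPKM of it against 0.218 and 0.122 RPKM, and the iBEC control 6.18 RPKM against 1.85 and 1.74 RPKM. *Col28a1* was lower in all 5 libraries and fell by 0.93 on the log2 scale (standard error 0.227, adjusted p = 0.0397), a fitted value that depends on the pseudocount and is no bound. Without control iHP the adjusted p was 0.276 for *Col8a1* and 0.177 for *Col28a1*, and both calls were also lost without control iHB, L1L2_Alb iHB 1, L1L2_Alb iHP 1, L1L2_Alb iHP 2 or L1L2_Alb iBEC 2. *Col28a1* further lost its call without L1L2_Alb iBEC 1 (0.0696), and without control iBEC it was under 1 RPKM on average and not tested.

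The multiplexins, which lie between basement membrane and stroma, differed from each other. *Col18a1*, the source of endostatin and known to be made by hepatocytes, was at 70.8 against 16.7 RPKM in iHBs, at 89.9 against 33.7 and 45.4 RPKM in iHPs, and at 72.4 against 67.2 and 51.9 RPKM in iBECs. All control values were above all values of the libraries labelled L1L2_Alb, and the threshold was narrowly missed (log2 fold change -1.08, standard error 0.296, adjusted p = 0.0569). With upper-quartile scaling or quantile normalization *Col18a1* was called lower. *Col15a1* was at 91.7 against 12.2 RPKM in iHBs, at 28.3 against 11.2 and 35.0 RPKM in iHPs, and at 92.3 against 169 and 113 RPKM in iBECs. It was therefore under the control in iHBs and above it in both iBEC libraries, and its log2 fold change of -0.73 (adjusted p = 0.478) turned to 0.05 without an iHB library.

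FACIT genes gave no call. *Col12a1*, found in dense connective tissue, was at 52.4 against 22.5 RPKM in iHBs, at 43.9 against 11.4 and 8.97 RPKM in iHPs, and at 17.2 against 51.4 and 9.69 RPKM in iBECs (log2 fold change -0.92, adjusted p = 0.361). *Col16a1* was at 30.4 against 5.84 RPKM, at 18.3 against 4.78 and 3.89 RPKM, and at 13.9 against 23.1 and 7.02 RPKM (-1.31, adjusted p = 0.115). *Col14a1* lay between 1.24 and 14.6 RPKM (-0.87, adjusted p = 0.158) and *Col9a3* between 0.307 and 2.45 RPKM (0.52, adjusted p = 0.312). *Col12a1* and *Col16a1* were lower in 4 of 5 libraries and higher in iBEC replicate 1. *Col20a1* went the other way and its replicates disagreed: it was at 2.52 against 19.5 RPKM in iHBs, at 3.29 against 25.3 and 2.18 RPKM in iHPs, and at 0.632 against 5.92 and 2.51 RPKM in iBECs. Higher in 4 of 5 libraries, *Col20a1* had an estimate of 1.67 on the log2 scale (standard error 0.639, adjusted p = 0.141), and it passed the test without L1L2_Alb iHP 2.

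As 3 of 4 basement-membrane genes had higher estimates and 8 of 9 fibrillar genes lower ones, the make-up of collagen RNA was also described, with no test. Basement-membrane genes took 17.4% of collagen RPKM in the iHB control, 18.5% in the iHP control and 15.9% in the iBEC control. In the libraries labelled L1L2_Alb they took 54.4% in the iHB library, 57.5% and 52.8% in the iHP libraries, and 17.4% and 32.8% in the iBEC libraries. The share was thus well above the controls in iHBs and iHPs, intermediate in iBEC replicate 2, and within the controls' range in iBEC replicate 1. The ratio of *Col4a1* to *Col1a1* cannot be moved by a scaling factor common to all genes of a library. It was 0.395, 0.380 and 0.319 in the controls of iHB, iHP and iBEC, against 1.59 in L1L2_Alb iHBs, 2.22 and 1.85 in L1L2_Alb iHPs, and 0.414 and 0.854 in L1L2_Alb iBECs. All 5 libraries labelled L1L2_Alb were above the highest control. Summed over all 44 genes, collagen took from 0.349% (L1L2_Alb iHP 1) to 0.905% (control iHB) of the RPKM of a library.

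**Figure D4:**
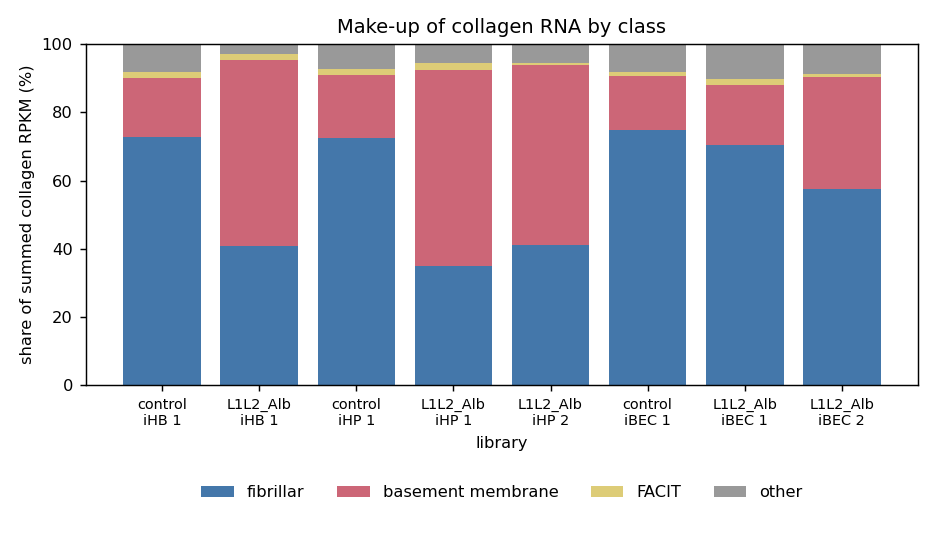
Share of summed collagen RPKM (%, vertical axis, from 0) held by the fibrillar, basement-membrane, FACIT and other classes in each of the 8 libraries (horizontal axis). The basement-membrane share was 15.9% to 18.5% in the controls, 52.8% to 57.5% in the L1L2_Alb iHB and iHP libraries, and 17.4% and 32.8% in the L1L2_Alb iBEC libraries.

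RNA of markers of stroma-making cells is given beside these values. The 16 mesenchymal markers summed to 1326 RPKM in the iHB control against 515 RPKM, to 724 RPKM in the iHP control against 115 and 215 RPKM, and to 440.0 RPKM in the iBEC control against 1363 and 403 RPKM. Fibrillar collagen summed to 4425 against 1420 RPKM, to 2771 against 761 and 1187 RPKM, and to 2769 against 3385 and 1678 RPKM in the same order. It followed the marker sums in direction in every library. In iBEC replicate 2 the marker sum was near its control and single markers split. *Mgp* (114 against 59.4 RPKM) and *Thy1* (33.7 against 18.9 RPKM) were higher there, and *Acta2* (65.5 against 101 RPKM) and *Dcn* were lower. Of 13 mesenchymal markers tested, 0 were called by limma, beside 9.57% of all genes tested. At an unadjusted p under 0.05 were 4 of the 13 markers, against 3524 of all 13421 genes. All 13 marker estimates were lower, against 5929 of all 13421 genes. The markers had a median log2 fold change of -0.78, against 0.06 over all genes. *Dcn*, which encodes the fibril-binding decorin, was at 88.9 against 5.28 RPKM in iHBs and at 115 against 309 and 71.4 RPKM in iBECs, while *Reln*, of stellate cells, was at or under 0.174 RPKM throughout. Basement-membrane collagen summed to 1057 against 1891 RPKM, to 706 against 1254 and 1524 RPKM, and to 589 against 837 and 957 RPKM. It went the other way than the marker sums in iHBs and iHPs, and in iBEC replicate 2, where the marker sum was near its control. The 6 mesothelial markers, of the cells that cover the liver, summed to 125 to 278 RPKM in the controls. In the libraries labelled L1L2_Alb they summed to 1102 to 3641 RPKM, of which *Msln* was the greater part. Of 5 tested, 3 were called higher, beside 6.2% of all genes tested. These were *Msln* (log2 fold change 3.61, adjusted p = 9.30e-04), *Upk1b* and *Pdpn*. *Wt1* (0.93) and *Upk3b* (0.53) had higher estimates that were not called. *Upk3b* was lower in both L1L2_Alb iHP libraries (1.65 and 0.691 against 2.97 RPKM) and higher in iHBs and iBECs. *Gpm6a* was at or under 0.154 RPKM. The part of these cell types in the collagen values was not tested.

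**Figure D5:**
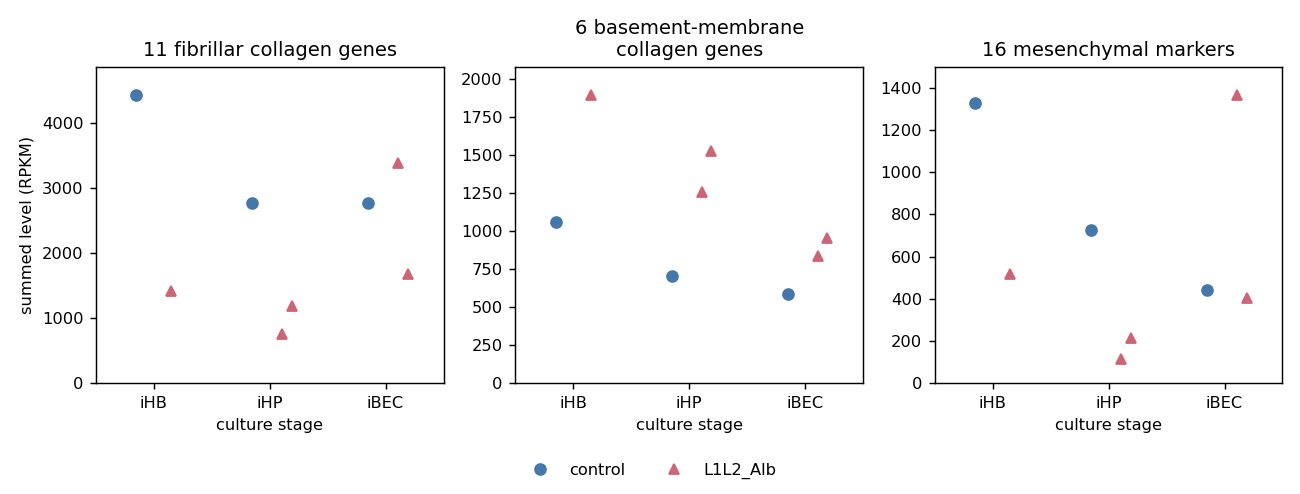
Summed level in RPKM (vertical axes, from 0) of the 11 fibrillar collagen genes, the 6 basement-membrane collagen genes and 16 mesenchymal markers by culture stage (horizontal axes); circles are control libraries and triangles libraries labelled L1L2_Alb. Fibrillar collagen and the markers were lower than the control in iHBs and iHPs and higher in iBEC replicate 1 (3385 and 1363 RPKM), and basement-membrane collagen was higher in all 5 libraries.

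The next question was whether the genotype effect differed between the stages. None of the 26 collagen genes passed the moderated F test of limma on the 6 conditions (4 at an unadjusted p under 0.05), beside 0% of all genes tested (733 at an unadjusted p under 0.05). *Col6a2* had the lowest unadjusted p of the 26, 0.00479 (adjusted p = 0.487). The test had 2 residual degrees of freedom. As a description, 18 of the 26 genes were under the control in all 3 iHB and iHP libraries labelled L1L2_Alb, whereas 32.3% of all genes tested were. Of the 18, 11 (61.1%) were above the control in iBEC replicate 1 and 2 (11.1%) in iBEC replicate 2. Among all genes tested that were under the control in those 3 libraries, the shares were 52.4% and 54.7%, so the share in replicate 1 was near that of other genes. Collagen levels were higher in iBEC replicate 1 than in replicate 2 for 22 of 26 genes, against 42.2% of all genes.

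Collagen RNA was then compared between the stages over both genotypes. Between iHPs and iHBs 0 of 26 collagen genes were called (4 at an unadjusted p under 0.05), beside 0% of all genes tested, with 23 of 26 lower in iHPs and a median log2 difference of -0.52 against -0.15 over all genes. Between iBECs and iHBs 3 of 26 passed, beside 5.72% of all genes (2.94% higher and 2.78% lower in iBECs): *Col4a2* was lower in iBECs (-1.19, standard error 0.22, adjusted p = 0.0197), *Col8a1* was lower (-2.30, standard error 0.397, adjusted p = 0.0149) and *Col28a1* was higher (1.77, standard error 0.283, adjusted p = 0.0106). The level of *Col4a2* thus went down from 433 to 209.7 RPKM in the controls and from 879 to 321 and 404 RPKM in the libraries labelled L1L2_Alb. These 3 calls were lost without control iHB or without L1L2_Alb iHB 1 (0 of the collagen genes called in each case), and without L1L2_Alb iHP 2 there were 7 calls. *Col4a2* also lost its call without control iBEC (adjusted p = 0.0514) or L1L2_Alb iBEC 1 (0.0631), and with upper-quartile scaling, which moved the median of all genes from -0.25 to -0.0045 in this comparison.

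Between iBECs and iHPs *Col28a1* was called (1.47 higher in iBECs, standard error 0.251, adjusted p = 0.021), 1 of 26 genes beside 4.12% of all genes. It was at 6.18, 1.85 and 1.74 RPKM in the 3 iBEC libraries and at 0.929, 0.218 and 0.122 RPKM in the 3 iHP libraries, which do not overlap. No collagen gene was called without control iHP, L1L2_Alb iHP 1, L1L2_Alb iBEC 1 or L1L2_Alb iBEC 2, and 3 were called without control iBEC or L1L2_Alb iHP 2. Without an iHB library 2 were called. *Col15a1*, with the largest estimate (2.38 higher in iBECs), did not pass the threshold (adjusted p = 0.0785). The stages differ in culture in more than 1 way, such as Matrigel for iBECs, oncostatin M for iHPs and the days of culture. These cannot be told apart.

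Collagen chains need enzymes and chaperones before they leave the cell and are cut and cross-linked outside it. Of 48 genes of synthesis, assembly and reception, 43 were tested and 3 passed between the genotypes, a share no higher than the 9.57% of all genes, with a median log2 fold change of 0.09 against 0.06 over all genes tested. *Loxl4*, a lysyl oxidase that cross-links collagen, was at 14.1 against 87.3 RPKM in iHBs, at 17.8 against 74.9 and 66.4 RPKM in iHPs, and at 4.29 against 20.6 and 64.3 RPKM in iBECs. Every library labelled L1L2_Alb was above every control library. *Loxl4* rose by 2.42 on the log2 scale (standard error 0.353, adjusted p = 0.00685), and its adjusted p stayed under 0.05 when any 1 library was left out. *Leprel1*, which encodes a prolyl 3-hydroxylase known to act on type IV collagen, was at 1.81 against 7.52 RPKM, at 0.906 against 4.42 and 4.15 RPKM, and at 0.736 against 1.50 and 1.55 RPKM. It was above the control of its stage in 5 of 5 libraries and rose by 1.17 (standard error 0.249, adjusted p = 0.0264, 0.222 without control iHP). *Pcolce2*, an enhancer of the removal of the procollagen end, was at 8.93 against 4.43 RPKM, at 9.40 against 4.13 and 3.90 RPKM, and at 15.4 against 11.6 and 8.43 RPKM. It fell by 0.84 (standard error 0.195, adjusted p = 0.0348, lower in 5 of 5 libraries, 0.285 without control iHP).

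By role, 11 prolyl and lysyl hydroxylases were tested, of which 9 had higher estimates, 1 was called and the median was 0.30. *P4ha1*, the main catalytic chain of prolyl 4-hydroxylase, was higher in 5 of 5 libraries with an estimate short of the threshold (0.90, adjusted p = 0.0508). Of 9 genes of folding, glycosylation and export 0 were called (1 at an unadjusted p under 0.05). *Serpinh1*, the chaperone HSP47 that collagen needs to fold, was at 399 against 349 RPKM in iHBs, at 236 against 168 and 313 RPKM in iHPs, and at 219 against 328 and 223 RPKM in iBECs. Its log2 fold change was 0.04 (95% interval -0.54 to 0.63, adjusted p = 0.941). Of 6 genes of propeptide cleavage *Pcolce2* was called, and of 9 genes of cross-linking and fibril assembly *Loxl4*, with medians of -0.49 and -0.84. *Pcolce*, also of propeptide cleavage and at 40.2 to 150 RPKM, went the other way than *Pcolce2*. It was higher in 5 of 5 libraries, short of the threshold (0.92, adjusted p = 0.0647). *Lox*, the lysyl oxidase best known from fibrillar collagen, was lower in 4 of 5 libraries (-1.12, adjusted p = 0.0716). Of 8 collagen receptors tested 0 were called (2 at an unadjusted p under 0.05), with a median of -0.09, and *Itga2*, a subunit of the integrin that binds type I and type IV collagen, was higher in 5 of 5 libraries without passing the threshold (0.62, adjusted p = 0.109).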

How the data were processed

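RNA was prepared with a TruSeq RNA v2 kit, which keeps no strand. The authors deposited 1 RPKM value per gene and library, not scaled further from library to library. RPKM as the unit follows from the values themselves, as short RNA genes changed in whole steps (at least 157 genes of up to 150 bases per library). The submitters' processing notes name Bowtie 0.12.2 and mm8. The counting method is not given in the sources used here. These steps gave the depth of each library, with whole reads (within 0.02) for 38 of the 44 collagen genes, which served for depth and floors and for no count model. Intervals from the fits cover the spread between libraries, which includes differences of the genotype effect between stages, and floors counting error only.

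Of 23471 entries, 4 (of 2 duplicated symbols) were left out. The 13421 genes with an average of 1 RPKM or more were fitted on log2(RPKM + 1) in R 4.3.3 by the lmFit and eBayes (trend) functions of limma 3.58.1, with stage and genotype as terms and 4 residual degrees of freedom. Adjusted p-values are limma's, two-sided, by the Benjamini-Hochberg method over all genes tested, with a threshold of 0.05. The difference between stages was the moderated F test on the 6 conditions. Promoters came from RefSeq (GRCm38.p6), which differs from the build of the files, so no other positions are given. Tested on simulated data for the genotype comparison, with 200 of 13421 genes changed, the fit called 41% of those changed by a log2 of 1, 99% of those changed by a log2 of 2, and 10 unchanged genes.

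The collagen classes, pathway genes and markers were chosen with earlier results of these data known. The result of a biliary marker is not reported here. By rule, values in every library are given for collagen genes called between the genotypes or, with a mean of at least 5 RPKM, between stages, for pathway genes called between the genotypes and for *Serpinh1*, and the further collagen genes given so were chosen after their values were seen. Tables and figures were made in Python 3.11.15 (pandas 2.3.3, matplotlib 3.10.9). The alternatives were a pseudocount of 0.1, upper-quartile scaling (percentile 75), quantile normalization, no filter, a filter at an average of 5 RPKM, no trend in eBayes, each library left out in turn, and the L1L2_Alb iHP and iBEC libraries alone.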

Additional observations from a re-analysis of the deposited data

Results flagged for a closer look

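*Col4a6* was lower than the control in every library labelled L1L2_Alb of iHBs and iHPs and higher in both of iBECs. Its genotype effect in iBECs (mean log2 difference 0.44) was 1.63 above that in iHBs (-1.19) and 1.27 above that in iHPs (-0.83). That mean rests on iBEC replicate 1 (0.86), the library with the high mesenchymal markers, as replicate 2 differed from the control by 0.013. *Col15a1* was lower in the L1L2_Alb iHB library (-2.82) and higher in both L1L2_Alb iBEC libraries (mean 0.58), a difference of 3.39. These opposite directions are why both genes are listed. The moderated F test of limma between the stages was not passed by either, with an adjusted p of 1.00 (unadjusted 0.111) for *Col4a6* and 0.761 (unadjusted 0.0255) for *Col15a1*. No group had enough libraries for a test of single outlying libraries.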

How the results depend on the processing

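The count of 5 collagen genes called between the genotypes was 2 with no filter on low values (43 genes tested) and 3 with a mean of at least 5 RPKM (19 tested), and ranged from 0 to 13 when single libraries were left out. For all genes, the count of 1284 was 686 with no filter and ranged from 205 to 1702 without single libraries. Between iBECs and iHBs the 3 calls became 1 with a mean of at least 5 RPKM, with a range of 0 to 7 without single libraries. Between iBECs and iHPs the 1 call became 0 with a mean of at least 5 RPKM, where *Col28a1* is not tested, with a range of 0 to 3. Where not stated, the cause was not tested. The L1L2_Alb libraries alone gave 1 call between iBECs and iHPs without the replicate block and 5 with it, all higher in iBECs and none of them *Col28a1* (adjusted p = 0.0674 and 0.0575). The replicate numbers were not shown to pair the libraries (correlation over genes of replicate 1 minus replicate 2 between the stages -0.02). Between iHPs and iHBs, and for the difference between stages, 0 collagen genes were called under the alternatives run, and the latter could not be fitted without a control or an iHB library.

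For the 12 calls of single genes, 97 of 161 alternative values kept the call, 64 lost it and 0 were reversed. *Loxl4* kept its call in 14 of 14 settings (highest adjusted p 0.0484), *Col4a2* in 11 of 14, *Col5a1* in 7 of 14, *Col8a1* in 5 of 13, *Col28a1* in 4 of 12 and *Col7a1* in 3 of 14. For the genotype, the settings without control iHB and without L1L2_Alb iHB 1 gave the same estimates and are both counted. Genes of few reads, such as *Col28a1*, are limited by depth, and 1 control library per stage limits every comparison.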
